A study of Mus musculus with 30 samples.

Results

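Microglia of Saline offspring were compared between the fetus (E17) and the adult (P60). The comparison used 6 of the 30 libraries of the series, namely the 3 labelled E17 Saline and the 3 labelled P60 Saline + CTRL, and all 14225 transcripts of the table. Every animal was C57BL/6J, and the dams of both groups had received saline at E9.5, as the vehicle control for maternal immune activation (MIA) by poly(I:C). Cells were taken from whole brain with magnetic beads against CD11B, an integrin of myeloid cells, so other CD11B-bearing cells of the brain and its borders pass the same step. Each E17 library was a litter pool, whereas each P60 library was 1 brain of an animal that had been on control chow from weaning, and age and pooling therefore cannot be told apart. Nothing in the labels ties an E17 library to a P60 library. Values were TPM, transcript levels scaled for length and depth, and a log2 change is the difference of mean log2(TPM + 1), P60 minus E17, so positive values are higher in the adult. It understates the change of transcripts near 0 TPM.

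Microglia are the resident macrophages of the brain. They descend from yolk sac progenitors that enter the neural tube early in gestation, divide there through late gestation and the first postnatal weeks, and then persist as long-lived cells that renew slowly. TGF-beta from the surrounding tissue and signalling through the CSF1 receptor maintain their identity, and surveillance of the adult brain relies on purine receptors such as P2RY12. Fetal and early postnatal microglia engulf dying cells and surplus synapses and gather along growing axon tracts.

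The 6 libraries held an estimated 9050000 to 12910000 counted reads, and 1 read on a transcript of 1 kb was worth 0.21 to 0.296 TPM. Pearson correlations of log2(TPM + 1) between libraries of a group were 0.982 to 0.991 at E17 and 0.969 to 0.983 at P60. By the cell type markers the study used, microglial transcripts made up 98.4% to 99.3% of marker TPM at E17 and 95.9% to 99.1% at P60. The summed TPM of 17 oligodendrocyte lineage transcripts was 221, 164 and 234 TPM at E17 and 1184, 3037 and 729.7 TPM at P60. That of 16 astrocyte transcripts was 734, 386 and 590.3 TPM at E17 and 5432, 10165 and 2951 TPM at P60. P60 replicate 2 was thus the highest in both, and it was the lowest of the P60 libraries in homeostatic microglia transcripts. Conversely, E17 replicate 1 was the highest E17 library in neuronal, neural progenitor and endothelial markers. Rows are single RefSeq transcripts, and genes with several of them had low rows (a median of 5.93 TPM against 24.7 TPM for genes with 1), so that a row such as those of Apoe, Trem2 or Cd74 is not the level of the whole gene. In bulk RNA, fewer cells of a type and less RNA per cell cannot be told apart.

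Nearly as many transcripts differed between fetal and adult microglia as did not. Of 14225 transcripts, 6762 (47.5%) passed an adjusted p of 0.05 in limma, with 3148 (22.1%) higher at P60 and 3614 (25.4%) lower. The 3 libraries of either age did not overlap for 7979 transcripts (56.1%), and 6501 (45.7%) were both called and free of overlap. A called change of at least 1 on the log2 scale was reached by 1618 transcripts (11.4%) upward and 1405 (9.88%) downward, one of at least 2 by 520 (3.66%) and 368 (2.59%), and one of at least 3 by 189 (1.33%) and 144 (1.01%). Tested against a change of 1 in place of 0 (limma's treat), 461 (3.24%) were higher and 455 (3.2%) lower. The median log2 change over all transcripts was -0.01. The plot of adult against fetal levels shows both wings.

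**Figure D1:**
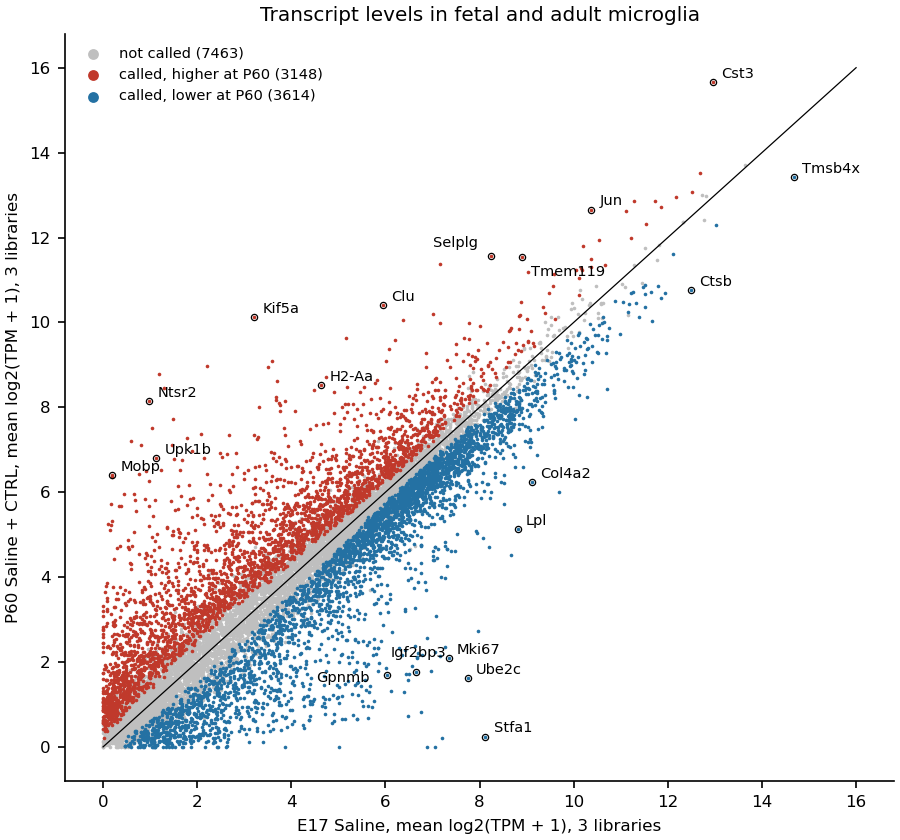
Mean log2(TPM + 1) of each transcript in the 3 P60 Saline + CTRL libraries (vertical) against the 3 E17 Saline libraries (horizontal), with the line of equal levels. The 3148 transcripts called higher at P60 (red) and the 3614 called lower (blue) lie on either side of the line, with those not called (grey) along it. Selected genes are named, such as Cst3 at the top right and Stfa1 at the lower edge.

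The most abundant transcripts were largely shared between the ages but changed in rank. Among the 10 most abundant of each age, 7 were common to both, and the 10 made up 8.72%, 10.3% and 9.54% of TPM in the E17 libraries and 13.5%, 11.4% and 16.3% in the P60 libraries. Tmsb4x, the actin-binding thymosin beta 4, was the most abundant transcript of the fetus. Tmsb4x had 25521, 28029 and 24902 TPM in the 3 fetal libraries and 10894, 9550.2 and 12623 TPM in the 3 adult ones. It fell by 1.25 ± 0.21 on the log2 scale (SE, n = 3 and 3, adjusted p = 2.80e-05). Cst3, the secreted cysteine protease inhibitor cystatin C, took its place in the adult. Cst3 was at 7388, 8464 and 8112 TPM in the E17 libraries and 51850.2, 42695 and 62280.1 TPM in the P60 libraries. It rose by 2.70 ± 0.26 on the log2 scale (SE, n = 3 and 3, adjusted p = 1.56e-08). Every P60 library was above every E17 library for Cst3 and below every one for Tmsb4x. Ctsd, the lysosomal protease cathepsin D, was among the leading transcripts of both ages with a mean of 12900.3 TPM at E17 and 13685 TPM at P60 (log2 change 0.07, adjusted p = 0.823). Of the C1q chains, which start the classical complement cascade, C1qb (0.18) and C1qc (0.26) did not pass the test, while C1qa was called higher (0.55 on the log2 scale, adjusted p = 0.0377), a call lost in 7 of 13 alternative fits (adjusted p up to 0.17).

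Fetal microglia carried a mitotic programme that was nearly gone in the adult. All 28 measured transcripts of the mitosis list fell, with a median log2 change of -4.28, beside 25.4% of all transcripts called lower and the median of -0.01 over all. Their summed TPM was 2262, 2431 and 2567 TPM at E17 and 157, 165 and 125 TPM at P60. The P60 mean was thus 16.3 times lower, and the libraries of the ages did not overlap (exact permutation p = 0.1, two-sided, the smallest that 3 against 3 can give). Ube2c, the ubiquitin-conjugating enzyme of the anaphase-promoting complex, had the largest fall of the list. Ube2c measured 215, 219 and 207 TPM at E17 and 4.16, 2.66 and 0.52 TPM at P60. It fell by 6.13 ± 0.35 on the log2 scale (SE, n = 3 and 3, adjusted p = 3.23e-12). Mki67, which encodes the proliferation antigen Ki-67, was close behind. Mki67 had 149, 154 and 183 TPM in the 3 fetal libraries and 3.84, 3.19 and 2.77 TPM in the 3 adult ones. It fell by 5.26 ± 0.24 on the log2 scale (SE, n = 3 and 3, adjusted p = 1.22e-13). Topoisomerase Top2a (-5.23), the mitotic kinase Cdk1 (-4.92), its cyclin Ccnb2 (-4.82) and the kinesin Kif11 (-4.73) fell by similar amounts on the log2 scale. The P60 values were low but above 0 in every library for each of these.

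The machinery of DNA replication fell with it, by less. Of 32 transcripts, 30 were lower at P60 and none was higher, with a median of -2.17, and the summed TPM went from 2002, 2340.3 and 2297 at E17 to 481, 474 and 473 at P60. Of all transcripts, 25.4% were lower and 22.1% higher. Rrm2, the regulatory subunit of ribonucleotide reductase, fell the most (-5.02). Of the MCM helicase that unwinds origins, Mcm2 had a larger fall than Mcm3. Mcm2 was at 134, 165 and 160.3 TPM in the E17 libraries and 13.8, 14.4 and 16.6 TPM in the P60 libraries. Mcm3 had 242, 294 and 283 TPM in the 3 fetal libraries and 64, 61.4 and 68.9 TPM in the 3 adult ones. The fall of Mcm3 had a log2 change of -2.06 ± 0.18 (SE, adjusted p = 3.16e-09). The sliding clamp Pcna remained readily detected in the adult. Pcna was at 339, 394 and 344 TPM in the E17 libraries and 102, 112 and 120.5 TPM in the P60 libraries. It fell by 1.68 ± 0.17 on the log2 scale (SE, n = 3 and 3, adjusted p = 3.02e-08). Gins3 and a low row of Pola2 did not pass the test. Among 17 transcripts of cell cycle inhibitors and quiescence genes, 8 fell and 2 rose: the CDK4/6 inhibitor Cdkn2c fell with the cycle (-3.43), as did Cdkn1a, the inhibitor p21 (-1.98), while the antiproliferative Btg2 (1.19) and the cyclin Ccng2 (0.71) rose. The summed TPM of these 17, unlike most of their members, was higher at P60, at 2861, 3345 and 2794 TPM at E17 and 3493, 3600.6 and 4122 TPM at P60.

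The promoters of the mitosis genes share letters that the expression values did not choose. A RefSeq promoter of 300 bases, from 250 before to 50 after the start site (build GRCm38.p6), was at hand for 10524 of the 13483 gene symbols. Both strands were searched. The CCAAT box (CCAAT, bound by NF-Y) was present in 17 of 23 mitosis promoters (73.9%), against 38.1% of the promoters of tested genes and 37.9% of all 27025 promoters. The cell cycle homology region (TTTGAA, an element of late cell cycle genes) was also present in 17 of 23 (73.9%), against 12% and 18.1%. Both were present in 15 of 23 (65.2%), against 4.93% and 7.12%. In the 24 replication promoters the cell cycle homology region stood in 3 (12.5%), whereas E2F letters (TTTNNCGC, N any base) stood in 10 (41.7%), against 8.09% of tested and 5.27% of all. Matches of different motifs may overlap at their ends. These shares describe letters and not binding. Ccnb2 (chr9:70421505-70421804, minus strand) and Cdk1 (chr10:69352863-69353162, minus strand) are shown because each is a mitosis gene with a deep fall that holds both elements, and Mcm3 (chr1:20820263-20820562, minus strand) as a replication gene with 2 E2F matches just after the start site. All are written 5′ to 3′ in the direction of the gene. Capitals mark CCAAT and TTTGAA, on either strand, in the first pair and the E2F letters alone in Mcm3.
Ccnb2: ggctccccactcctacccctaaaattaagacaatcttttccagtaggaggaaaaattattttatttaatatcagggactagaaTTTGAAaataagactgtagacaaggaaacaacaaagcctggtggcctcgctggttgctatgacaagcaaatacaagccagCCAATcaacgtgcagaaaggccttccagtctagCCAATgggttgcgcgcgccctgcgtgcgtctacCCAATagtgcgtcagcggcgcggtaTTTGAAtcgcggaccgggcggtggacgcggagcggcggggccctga
Cdk1: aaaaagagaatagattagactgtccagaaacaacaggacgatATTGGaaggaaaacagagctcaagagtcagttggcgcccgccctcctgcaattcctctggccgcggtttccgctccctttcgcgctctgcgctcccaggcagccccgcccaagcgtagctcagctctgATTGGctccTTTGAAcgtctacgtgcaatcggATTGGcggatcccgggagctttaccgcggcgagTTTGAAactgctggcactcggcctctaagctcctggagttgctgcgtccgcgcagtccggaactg
Mcm3: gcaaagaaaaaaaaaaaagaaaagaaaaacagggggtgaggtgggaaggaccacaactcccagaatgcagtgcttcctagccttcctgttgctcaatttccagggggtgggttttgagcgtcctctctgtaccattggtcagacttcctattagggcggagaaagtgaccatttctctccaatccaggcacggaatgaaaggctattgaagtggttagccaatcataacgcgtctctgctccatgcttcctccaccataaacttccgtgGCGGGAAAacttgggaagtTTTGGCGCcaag

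Oncofetal RNA-binding proteins were higher in the fetus. Of 16 transcripts of the oncofetal and imprinted growth list, 11 fell and 1, the DNA-binding protein Arid3b, rose, a call lost in 4 of 13 alternative fits (adjusted p up to 0.111). The median was -1.94. Of all transcripts, 25.4% fell and 22.1% rose. Igf2bp3, an RNA-binding protein of embryonic and tumour tissue, had one of the most even falls of the table. Igf2bp3 measured 92.4, 108 and 98.4 TPM at E17 and 1.99, 2.85 and 2.4 TPM at P60. It fell by 4.88 ± 0.15 on the log2 scale (SE, n = 3 and 3, adjusted p = 1.03e-16). Its relative Igf2bp1 and the let-7 repressor Lin28b were weaker at E17 and almost absent at P60. Igf2bp1 had 13, 6.94 and 9.43 TPM in the 3 fetal libraries and 0.14, 0.07 and 0.03 TPM in the 3 adult ones. Lin28b measured 9.58, 8.17 and 11.3 TPM at E17 and 0.39, 0.31 and 0.13 TPM at P60. Igf2bp2, the member of the family that persists in adult tissues, had a log2 change of -0.78, a call lost in 4 of 13 alternative fits (adjusted p up to 0.0714), and kept a mean of 8.93 TPM. The imprinted non-coding RNA Meg3 (-3.41), the zinc finger factor Plagl1 (-3.04), the receptor Igf2r (-2.25) and the growth factor Igf2 (-2.19) also fell. The members of the list were ordered by library as the neural markers of the fetal libraries were (replicate 1 highest, replicate 2 lowest) in 11 of 16 cases, against 34.3% of all transcripts, and the part of other cells in their levels was not tested. Lin28b and Igf2bp3 did not follow that order.

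The largest falls of all belonged to stefins. Stefin A genes encode small intracellular inhibitors of cysteine cathepsins and lie side by side in the mouse genome as near-identical copies, so reads may have been divided among them and single levels are uncertain. Stfa1 was at 228, 276 and 342 TPM in the E17 libraries and 0, 0.66 and 0 TPM in the P60 libraries. Stfa3 had 112, 126 and 160.3 TPM in the 3 fetal libraries and 0, 0 and 0 TPM in the 3 adult ones. Stfa2 measured 92.4, 117 and 146 TPM at E17 and 0, 0 and 0 TPM at P60. BC100530 and Stfa2l1, of the same cluster, had means of 147 and 89.1 TPM at E17 and 0.183 and 1.17 TPM at P60, and Gm5483 and Gm5416 had 107 and 32 TPM at E17 and 1.01 and 0 TPM at P60. Stefins are also known from neutrophils. The summed TPM of 18 neutrophil and monocyte markers was 1213, 1273 and 1476 at E17 and 905, 1055 and 925 at P60, a ratio of 1.37 between the means. Of these markers 3 fell and 2 rose, below the 25.4% and 22.1% of all transcripts. Within E17, replicate 3 was the highest and replicate 1 the lowest in their sum. Stfa1, Stfa2, Stfa3, Stfa2l1 and Gm5416 had the same order, whereas BC100530 and Gm5483 did not. The part of neutrophils and monocytes in the stefin values was not tested.

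Chromatin proteins and ribosomes were higher in the fetus as well. The counts in this paragraph are to be read beside the 25.4% of all transcripts that fell and the 22.1% that rose. Of 29 transcripts of chromatin and histone variants, 18 fell and 4 rose, led by the helicase Hells (-3.60), the histone H2afx (-2.91) and the high mobility group protein Hmgb2 (-1.95). The demethylase Kdm6b fell too (-1.78), while Setd7 rose (0.84). Of 73 cytosolic ribosomal protein transcripts, 57 fell and 1, a low row of Rps24, rose, a call lost without P60 replicate 2 (log2 change 0.97, adjusted p = 0.078). The summed TPM of these 73 was 32519, 34657 and 31123 at E17 and 17844, 20311.5 and 17943 at P60, a ratio of 1.75 between the means. Oxidative phosphorylation moved less: 20 of 45 fell and 1, Ndufb9, rose, though not without P60 replicate 2 (log2 change 0.47, adjusted p = 0.116), the median was -0.23, and the summed TPM overlapped between the ages. Without P60 replicate 3, 14 fell and 7 rose, and without replicate 2, 26 fell and none rose. Of the 45, 38 had the library order of the astrocyte and oligodendrocyte sums within P60, against 32.2% of all transcripts, and the part of those cells was not tested. In glycolysis 9 of 23 fell and 6 rose. Pkm, pyruvate kinase, fell by 1.87 and the triosephosphate isomerase Tpi1 by 1.61, whereas Aldoc, the aldolase of brain tissue, had the largest rise of the list (4.35), and all 6 members that rose were ordered by library as the astrocyte sum was.

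**Figure D2:**
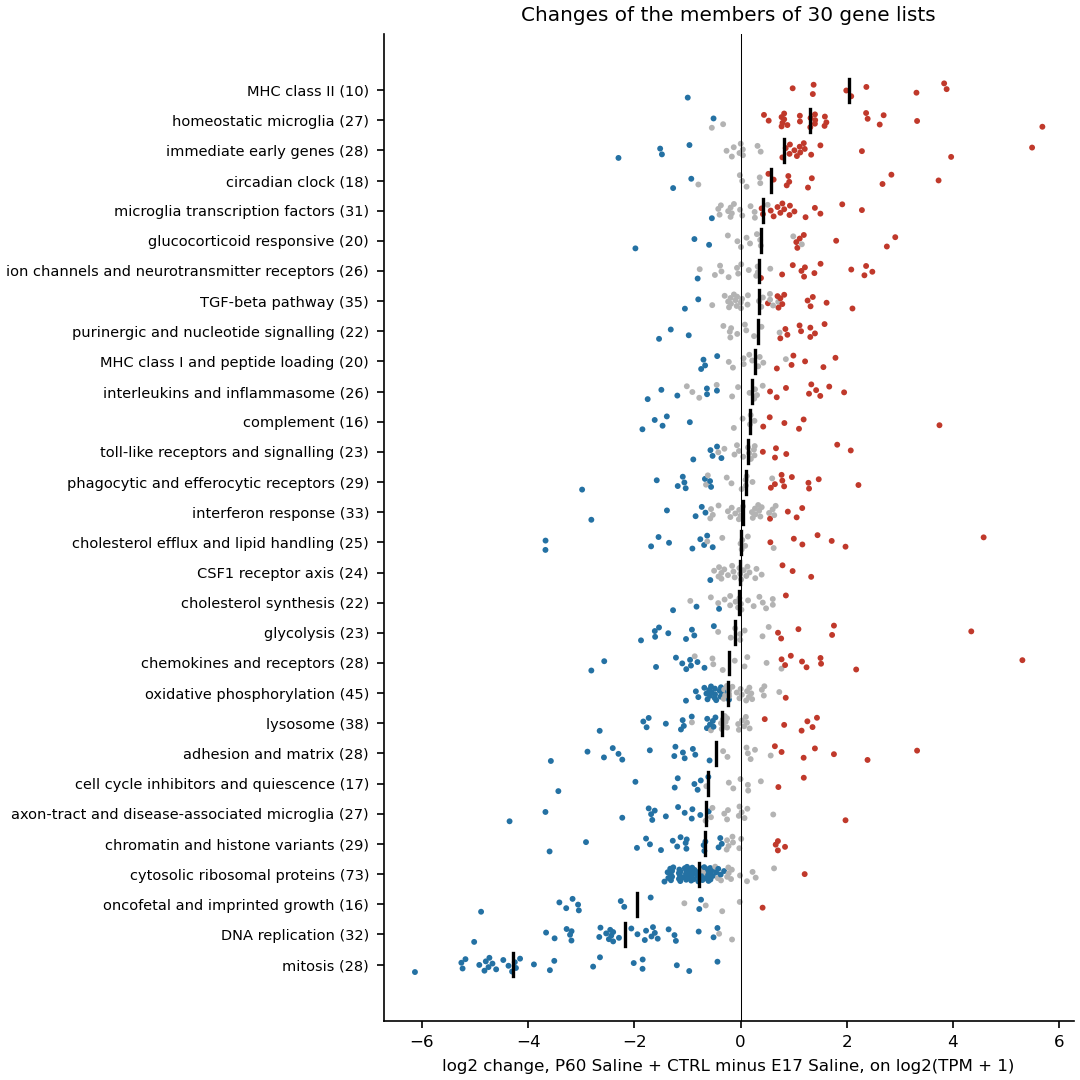
Log2 change (P60 Saline + CTRL minus E17 Saline, on log2(TPM + 1)) of each member of 30 gene lists, with the number of transcripts in brackets, red where called higher, blue where called lower and grey where not called. Black bars are list medians, which run from -4.28 for mitosis to 2.04 for MHC class II.

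The homeostatic microglia signature rose as a group. Of 27 transcripts, 24 rose (22.1% of all transcripts did) and 1 fell, with a median of 1.31. Their summed TPM was 31808, 38966 and 36691 TPM at E17 and 105264, 88407 and 125900.1 TPM at P60. This was 2.97 times higher at P60, or 10.7% of a library's TPM against 3.58%. The size differed widely between members. Tmem119, a membrane protein used to mark microglia, rose steeply. Tmem119 was at 386, 586 and 487 TPM in the E17 libraries and 3166, 2354 and 3459 TPM in the P60 libraries. It rose by 2.62 ± 0.22 on the log2 scale (SE, n = 3 and 3, adjusted p = 2.02e-09). Selplg, the P-selectin ligand PSGL-1, rose more. Selplg measured 253, 341 and 319 TPM at E17 and 3114, 2503 and 3590.1 TPM at P60. It rose by 3.33 ± 0.26 on the log2 scale (SE, n = 3 and 3, adjusted p = 5.50e-10). Upk1b, the tetraspanin uroplakin 1b, had the largest rise of the list, from about 1 TPM. Upk1b had 0.96, 0.99 and 1.65 TPM in the 3 fetal libraries and 135, 82.7 and 123 TPM in the 3 adult ones. It rose by 5.68 ± 0.42 on the log2 scale (SE, n = 3 and 3, adjusted p = 1.79e-10). P2ry12, the ADP receptor of resting microglia, was already above 1000 TPM in the fetus. P2ry12 was at 1298, 1656 and 1537 TPM in the E17 libraries and 3779.7, 3422 and 4721 TPM in the P60 libraries. It rose by 1.40 ± 0.24 on the log2 scale (SE, n = 3 and 3, adjusted p = 3.17e-05). Cx3cr1, the fractalkine receptor (0.77), and Csf1r (0.79) rose by less than 1 on the log2 scale. Fcrls, an Fc receptor-like protein enriched in microglia, went the other way. Fcrls measured 3906, 4875 and 4513 TPM at E17 and 3247, 2688 and 3424 TPM at P60. It fell by 0.51 ± 0.20 on the log2 scale (SE, n = 3 and 3, adjusted p = 0.0371). That call was lost in 6 of 13 alternative fits (adjusted p up to 0.163). Gpr84 and Serpine2 did not pass the test, at -0.54 and -0.33.

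Transcription factors of microglial identity rose in part. Of 31 transcripts, 16 rose and 1 fell, beside 22.1% and 25.4% of all transcripts. Sall1 is restricted to microglia among macrophages. Sall1 had 177, 318 and 271 TPM in the 3 fetal libraries and 699.8, 567 and 710 TPM in the 3 adult ones. It rose by 1.40 ± 0.29 on the log2 scale (SE, n = 3 and 3, adjusted p = 3.91e-04). Its relative Sall3 rose by 1.22. Spi1, which encodes the myeloid factor PU.1, fell. Spi1 was at 762, 955 and 849 TPM in the E17 libraries and 593, 506 and 669 TPM in the P60 libraries. It fell by 0.54 ± 0.19 on the log2 scale (SE, n = 3 and 3, adjusted p = 0.0215). That call was lost in 4 of 13 alternative fits (adjusted p up to 0.116). A PU.1 motif (GAGGAAGT, both strands) stood in 1 of 18 promoters of homeostatic genes (5.56%), against 3.28% of all promoters. Mef2c, Mef2a and the rows of Nfe2l2 did not pass the test.

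Genes that mark microglia of fetal axon tracts and disease-associated microglia moved the opposite way. Of 27 transcripts, 14 fell and 1 rose, beside 25.4% and 22.1% of all transcripts. The median was -0.66 against -0.01 over all. The summed TPM was 22396, 25511 and 23858 at E17 and 14688, 13469 and 14565 at P60. Gpnmb, a glycoprotein of lipid-laden phagocytes, fell the most. Gpnmb measured 56.8, 79.5 and 59.1 TPM at E17 and 2.59, 2.46 and 1.66 TPM at P60. It fell by 4.35 ± 0.33 on the log2 scale (SE, n = 3 and 3, adjusted p = 2.58e-10). Lpl, lipoprotein lipase, was abundant in the fetus. Lpl had 381, 499 and 474 TPM in the 3 fetal libraries and 32.2, 32.3 and 38.5 TPM in the 3 adult ones. It fell by 3.67 ± 0.29 on the log2 scale (SE, n = 3 and 3, adjusted p = 4.59e-10). Plaur, the urokinase receptor (-2.23), the cathepsins Ctsb (-1.73) and Ctsl (-1.41) and the integrin Itgax (-1.62) fell also. Ch25h, the cholesterol 25-hydroxylase, was the member that rose (1.98). The chemokines Ccl3 and Ccl4 and the adaptor Tyrobp were abundant at both ages and did not pass the test, at -0.53, 0.08 and -0.31.

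Lists of lipid handling and lysosomes held both falls and rises. Beside these counts, 25.4% of all transcripts fell and 22.1% rose, and nothing particular to a list is read from a split near those shares. In the list of cholesterol efflux and lipid handling 10 of 25 fell and 7 rose. Plin2, which coats lipid droplets, fell in parallel with Lpl. Plin2 was at 783, 914 and 777 TPM in the E17 libraries and 63.4, 60.4 and 67.3 TPM in the P60 libraries. It fell by 3.67 ± 0.21 on the log2 scale (SE, n = 3 and 3, adjusted p = 2.69e-12). The efflux transporter Abca1 fell by 1.54 and Soat1, which esterifies cholesterol, by 0.69. The transporter Abca2 rose (1.72), as did Mylip (1.45), the ligase that degrades the LDL receptor. The desaturase Scd1 had the largest rise of the list, with 324, 666 and 127 TPM at P60, in the library order of the astrocyte sum. In cholesterol synthesis 3 of 22 fell (1 without P60 replicate 1) and 1 rose. Of 38 lysosomal transcripts 15 fell and 6 rose. Gla, alpha-galactosidase A (-2.65), and Gusb, beta-glucuronidase (-1.83), fell the most, and the proton pump subunits Atp6v1a (-1.09), Atp6v1b2 (-1.12) and Atp6v0d1 (-1.07) fell together. The summed TPM of the list overlapped between the ages (47225, 57223 and 53936 at E17, 45875, 39833 and 56563 at P60).

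Antigen presentation by MHC class II was low in the fetus and rose in the adult. Of 10 transcripts, 9 rose and 1 fell, beside 22.1% and 25.4% of all transcripts. The median was 2.04, and the counts were the same in the fit without P60 replicate 2. H2-Aa measured 20.2, 29 and 23 TPM at E17 and 507, 316 and 303 TPM at P60. H2-Ab1 was at 27.6, 43.2 and 36 TPM in the E17 libraries and 503, 327 and 278 TPM in the P60 libraries. H2-Eb1 had 13.7, 21.8 and 13.4 TPM in the 3 fetal libraries and 359, 208 and 185 TPM in the 3 adult ones. These encode the chains of the I-A and I-E molecules, and their log2 changes were 3.88 ± 0.30, 3.31 ± 0.28 and 3.83 ± 0.33. P60 replicate 1 was the highest in each and replicate 3 the lowest. By Xist (124 TPM against 0.29 and 0.28 TPM) replicate 1 was the only female of the 3, and the part of sex was not tested. Without P60 replicate 1 the counts were again 9 and 1, with a median of 1.93. The astrocyte and oligodendrocyte sums had another order within P60, whereas the summed TPM of 9 choroid plexus markers had the same one (3117, 1424 and 2811.5 TPM at E17, 2696, 1274 and 512 TPM at P60), and border macrophage and lymphocyte sums were also highest in P60 replicate 1. The peptide exchange factors H2-DMa (1.38), H2-DMb1 (1.99) and H2-Ob (2.08) rose with them. Ifi30, the lysosomal thiol reductase, fell (-0.99). Border macrophages and B cells also bear class II. Of 15 border macrophage transcripts, 6 fell, among them Mrc1 (-1.29), Pf4 (-1.63) and Lyve1 (-1.76), and 3 rose, with the lectin Cd209f (3.52) in the lead. Their summed TPM was 2085, 2824 and 2394 at E17 and 1825, 1404 and 1606 at P60. The 9 lymphocyte markers summed to 10 to 16.4 TPM at E17 and to 51.1, 25.8 and 40.5 TPM at P60, with 7 higher (4 without P60 replicate 1). The part of these cells and of choroid plexus in the class II values was not tested. The CCAAT box, part of the class II promoter module, stood in 6 of 8 class II promoters (75.0%), against 38.1% of the promoters of tested genes. Its shares in other lists are given above with the mitosis promoters. The promoter of H2-Eb1 (chr17:34305617-34305916, plus strand) is shown as the example with 2 such boxes, in capitals.
H2-Eb1: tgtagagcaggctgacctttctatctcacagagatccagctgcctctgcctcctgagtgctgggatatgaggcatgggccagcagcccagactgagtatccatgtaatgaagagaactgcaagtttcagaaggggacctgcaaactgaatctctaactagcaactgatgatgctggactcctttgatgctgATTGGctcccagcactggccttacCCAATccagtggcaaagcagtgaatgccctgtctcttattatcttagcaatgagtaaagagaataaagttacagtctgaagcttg

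Other immune lists held rises and falls, to be read beside the 22.1% of all transcripts that rose and the 25.4% that fell. MHC class I and peptide loading had 6 of 20 higher, led by the non-classical H2-T23 (1.79), and 4 lower (2 without P60 replicate 2), and its summed TPM overlapped between the ages. Of 16 complement transcripts 6 rose and 5 fell: C3 fell (-1.85) and so did its receptor C3ar1 (-1.39), while C4b rose from about 1 TPM. C4b measured 1.29, 0.73 and 1.45 TPM at E17 and 33, 28.1 and 22.7 TPM at P60. Among 33 interferon-response transcripts 5 fell and 4 rose. Only 1 of these rises was called without E17 replicate 1 or without P60 replicate 1, and 2 without E17 replicate 2. Cxcl10, an interferon-induced chemokine, was the main fall. Cxcl10 was at 368, 391 and 341 TPM in the E17 libraries and 56.8, 49.5 and 48.1 TPM in the P60 libraries. It fell by 2.81 ± 0.32 on the log2 scale (SE, n = 3 and 3, adjusted p = 1.46e-07). Of 23 transcripts of Toll-like receptors and their signalling, 6 rose and 5 fell. Without E17 replicate 2, E17 replicate 3 or P60 replicate 2 there were 2 falls, and without P60 replicate 1 there were 3. The flagellin receptor Tlr5 (2.08) and the double-stranded RNA receptor Tlr3 (1.82) rose, and the lipoprotein receptor Tlr2 fell (-0.89). Of 26 transcripts of interleukins and the inflammasome 9 rose, with Il10ra, the receptor for interleukin 10, in the lead, and 6 fell (3 without E17 replicate 3), with Nlrp3, the inflammasome sensor, in the lead. Il10ra measured 167, 231 and 219 TPM at E17 and 738, 648 and 1037 TPM at P60. Nlrp3 was at 666, 527 and 637 TPM in the E17 libraries and 204, 164 and 174 TPM in the P60 libraries. Their log2 changes were 1.95 and -1.75. Among 28 chemokines and receptors 10 fell and 9 rose, with Cmklr1 (1.52) higher and Cxcr4 (-1.10) lower in the adult.

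Ion channels and neurotransmitter receptors had more rises than falls. Of 26 transcripts 12 rose, beside 22.1% of all transcripts, and 1, the chloride channel protein Clic1, fell, beside 25.4%. The adrenergic receptor Adrb1 had the largest rise of the list. Adrb1 had 9.33, 8.16 and 9.17 TPM in the 3 fetal libraries and 43.2, 48.5 and 75.7 TPM in the 3 adult ones. It rose by 2.48 ± 0.29 on the log2 scale (SE, n = 3 and 3, adjusted p = 2.92e-07). The GABA-B subunit Gabbr1 (1.51) and the cation channel Trpm2 (1.39) rose as well. Of the 12 rises 4 had the library order of the astrocyte sum, among them Gabbr1, Gabbr2 and the glutamate receptor Grm3. Of 22 purinergic transcripts 9 rose and 3 fell. P2ry13 (1.58), Gpr34 (1.31) and the adenosine receptor Adora3 (1.32) rose beside P2ry12, and the ATP release channel Panx1 fell (-1.31). In the TGF-beta pathway 11 of 35 rose and 2 fell. The ligand Tgfb1 was level (log2 change 0.03, adjusted p = 0.9), while the inhibitory target Smad7 rose. Smad7 was at 91, 59.3 and 76.3 TPM in the E17 libraries and 233, 218 and 243 TPM in the P60 libraries. It rose by 1.62 ± 0.19 on the log2 scale (SE, n = 3 and 3, adjusted p = 3.03e-07). Smad3 (0.75) and Pmepa1 (1.26) rose too, and Nrros, which anchors latent TGF-beta on microglia, fell (-0.80). In the CSF1 receptor axis 3 of 24 rose and 1 fell, below the shares of all transcripts.

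Phagocytic receptors and adhesion genes moved in both directions, beside 22.1% of all transcripts higher and 25.4% lower. Of 29 phagocytic and efferocytic receptors 10 rose, such as Mertk (0.82) and Havcr2 (1.29), and 9 fell (5 without P60 replicate 2), such as the scavenger receptor Marco (-2.98), the Fc receptor Fcgr4 (-1.58) and the bridging ligand Gas6 (-1.18). Of 28 adhesion and matrix transcripts 14 fell and 7 rose. The basement membrane collagen Col4a2 showed the spread that vessel-borne transcripts can have. Col4a2 measured 908, 317 and 585 TPM at E17 and 92, 83 and 53.1 TPM at P60. It fell by 2.88 ± 0.41 on the log2 scale (SE, n = 3 and 3, adjusted p = 3.87e-06). E17 replicate 1, the highest here, was also the highest in endothelial markers, whose sums were 4329, 1431 and 2602 TPM at E17 and 3218, 2818 and 1991 TPM at P60, and the part of vessels in Col4a2 was not tested. Tenascin Tnc (-3.57), laminin Lama4 (-2.57) and the gelatinase Mmp9 (-2.30) fell, and Vcam1 (1.40) and Timp3 (1.76) rose.

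Immediate early genes were higher in the adult libraries. The counts here are to be read beside 22.1% of all transcripts that rose and 25.4% that fell. Of 28 immediate early transcripts 15 rose and 4 fell, and the summed TPM was 2.00 times higher at P60. Jun had 1269, 1565 and 1171 TPM in the 3 fetal libraries and 6146, 5255 and 8369 TPM in the 3 adult ones. Jun, an AP-1 subunit, rose by 2.29 ± 0.26 on the log2 scale (SE, n = 3 and 3, adjusted p = 2.00e-07). Fos and the mRNA-decay factor Zfp36 followed, with means of 2223 and 3427 TPM at E17 and 6445 and 7443 TPM at P60. The inducible heat shock protein Hspa1b had the largest rise of the list and a wide spread in the adult. Hspa1b was at 17.6, 8.56 and 8.84 TPM in the E17 libraries and 410.1, 276 and 1397 TPM in the P60 libraries. It rose by 5.49 ± 0.66 on the log2 scale (SE, n = 3 and 3, adjusted p = 3.90e-07). P60 replicate 3 was the highest for Hspa1b, Jun and Fos and the lowest in astrocyte and oligodendrocyte markers. The phosphatase Dusp2 (-2.30) and the orphan receptor Nr4a3 (-1.51) fell. Glucocorticoid responsive transcripts rose in 7 of 20, among them Klf9 (2.91) and the highest row of Sgk1 (2.76), and fell in 3. Of 18 circadian clock transcripts 10 rose (6 without P60 replicate 1 and 7 without replicate 2) and 2 fell. Their summed TPM overlapped between the ages, at 423, 263 and 317 TPM at E17 and 766, 568 and 327 TPM at P60 (exact permutation p = 0.2, two-sided). Dbp, an output gene of the clock, differed between the adult brains. Dbp measured 5.79, 5.6 and 7.47 TPM at E17 and 198, 115 and 37.5 TPM at P60. It rose by 3.73 ± 0.41 on the log2 scale (SE, n = 3 and 3, adjusted p = 8.09e-08). Nr1d1, the repressor REV-ERB alpha, was ordered in the same way within P60. Nr1d1 had 19.2, 10 and 13.6 TPM in the 3 fetal libraries and 147, 98 and 56.8 TPM in the 3 adult ones. It rose by 2.67 ± 0.36 on the log2 scale (SE, n = 3 and 3, adjusted p = 1.48e-06).

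The largest rises of the whole table were mostly of transcripts known from other brain cells. The 15 largest, 1 transcript a gene, were Gpr37l1, Ddn, Ntsr2, Kif5a, S100b, Camk2a, Hpcal4, Aldh1a1, Nrsn1, Mobp, Opalin, Upk1b, Mlph, Zfp365 and Tmem88b. Gpr37l1, a receptor of astrocytes, led them. Gpr37l1 was at 2.25, 0.97 and 0.89 TPM in the E17 libraries and 414, 888 and 236 TPM in the P60 libraries. It rose by 7.60 ± 0.52 on the log2 scale (SE, n = 3 and 3, adjusted p = 5.55e-11). Ddn, dendrin of neuronal dendrites, followed. Ddn measured 1.69, 1.23 and 1.44 TPM at E17 and 344, 605 and 209 TPM at P60. It rose by 7.17 ± 0.41 on the log2 scale (SE, n = 3 and 3, adjusted p = 2.69e-12). In 13 of the 15, all but Upk1b and Mlph, P60 replicate 2 was the highest and replicate 3 the lowest, which is the order of the astrocyte and oligodendrocyte sums. That order was found in 32.2% of all transcripts, in 40.4% of those called higher, in 54.1%, 73.5% and 80.4% of those called higher by at least 1, 2 and 3 on the log2 scale, in 16 of 16 astrocyte and 17 of 17 oligodendrocyte transcripts, and in 2 of 27 homeostatic microglia transcripts. Of the astrocyte transcripts 14 of 16 rose (11 in the fit without P60 replicate 2), and of the oligodendrocyte transcripts 14 of 17 (13 in that fit). Of all transcripts 22.1% rose. Their defining members S100b and Mog had means of 3.63 and 2.73 TPM at E17 and 571 and 151 TPM at P60. The part of these cells in the largest rises was not tested.

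**Figure D3:**
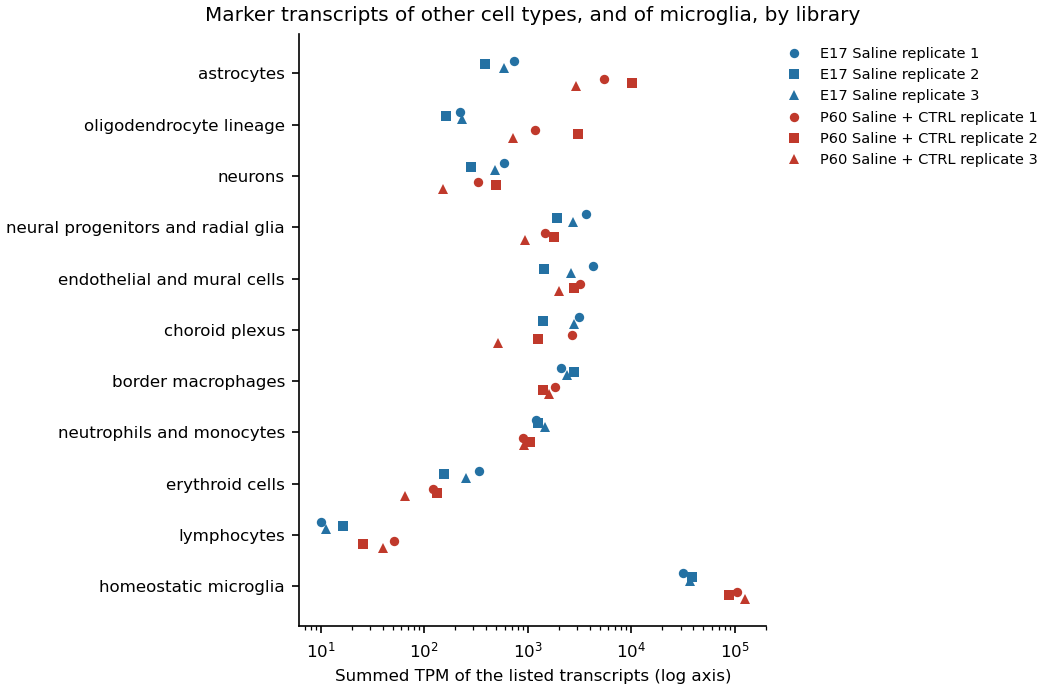
Summed TPM (log axis) of the listed transcripts of 10 other cell types and of homeostatic microglia in each of the 3 E17 Saline (blue) and 3 P60 Saline + CTRL (red) libraries, with the replicate given by the shape. Astrocyte and oligodendrocyte sums are higher in every P60 library, and P60 replicate 2 (square) is the highest in both but the lowest of the P60 libraries in homeostatic microglia.

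The opposite order within P60, with replicate 3 the highest and replicate 2 the lowest, is that of the homeostatic sum. It was found in 16.5% of all transcripts and in 20 of 27 homeostatic ones. Among the largest rises with this order, a set chosen after the values were seen and given without a test, were Mlph, Hspa1b, Csmd3, Hspa1a, Mir7035, Selplg and Tnfsf13b. Mir7035 is a short microRNA row, on which 1 read is worth more TPM than on 1 kb. It had 0 TPM in each E17 library and 7.26, 6.71 and 14.8 TPM at P60. In MIA offspring it did not pass the test (log2 change 0.95, adjusted p = 0.415 in limma). Mlph, melanophilin, which links vesicles to myosin, was near 1 TPM in each fetal library. Mlph had 0.75, 0.39 and 1 TPM in the 3 fetal libraries and 104, 50.2 and 120.1 TPM in the 3 adult ones. It rose by 5.68 ± 0.34 on the log2 scale (SE, n = 3 and 3, adjusted p = 6.07e-12). Tnfsf13b, which encodes the B cell factor BAFF, reached 29.9 TPM at P60 from 2.24 TPM at E17 (3.32 on the log2 scale). Progenitor genes were higher in the fetus, and neuronal genes went both ways. Of 16 transcripts of neural progenitors and radial glia 9 fell and none rose, with Sox11 (-4.15) in the lead. Of 17 neuronal transcripts 6 fell and 3 rose, and of all transcripts 25.4% fell and 22.1% rose. The neuronal sums overlapped, at 586.9, 283 and 481 TPM at E17 and 329, 494 and 153 TPM at P60 (exact permutation p = 0.5, two-sided). Tubb3 was at 204, 103 and 185 TPM in the E17 libraries and 22.8, 30.6 and 8.46 TPM in the P60 libraries. Slc17a7 had 2.87, 1.93 and 1.6 TPM in the 3 fetal libraries and 83.8, 174 and 50.5 TPM in the 3 adult ones. The early neuronal tubulin Tubb3 was thus fetal and the vesicular glutamate transporter Slc17a7, of mature neurons, adult. The order of the neural sums within E17, replicate 1 highest and replicate 2 lowest, was found in 34.3% of all transcripts, 16 of 16 progenitor transcripts and 13 of 15 endothelial ones, but in 0 of 28 mitosis and 3 of 32 replication transcripts.

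Transcripts present at one age and absent at the other were few. Fetal-only meant at least 5 TPM in every E17 library and under 0.5 TPM in every P60 library, and adult-only the converse. These levels chose the members and are given with no test. There were 12 fetal-only transcripts, namely Stfa3, Stfa2, Gm5416, Hba-x, Ticrr, Apol8, Kif14, Igf2bp1, Lin28b, Exo1, Brip1 and Gpihbp1. Stfa3, Stfa2, Gm5416 and Hba-x, the embryonic alpha-like globin, were listed at 0 in all P60 libraries. Hba-x measured 7.04, 12.8 and 26.5 TPM at E17 and 0, 0 and 0 TPM at P60. The 5 erythroid transcripts were measured, with a sum of 339, 156 and 252 TPM at E17 and 121, 133 and 65.1 TPM at P60. Ticrr, needed for the firing of origins, Kif14, a kinesin of cytokinesis, and the DNA repair genes Exo1 and Brip1 are known from dividing cells. Ticrr was at 8.92, 15.2 and 15.5 TPM in the E17 libraries and 0.29, 0.34 and 0.34 TPM in the P60 libraries. Kif14 had 10.3, 10.1 and 11.9 TPM in the 3 fetal libraries and 0.36, 0.4 and 0.17 TPM in the 3 adult ones. The name refers to E17 and P60 only, since 7 of the 12 were also at 5 TPM or more in every P7 Saline library, and none was at P20. Without P60 replicate 1 or 2 the rule gave 20 or 21 in place of 12. Just inside the limit lay Apol8, with up to 0.45 TPM at P60, and just outside it Parpbp and BC100530, with up to 0.57 and 0.55 TPM.

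There were 22 adult-only transcripts, several of them known from oligodendrocytes. They were Mobp, Fa2h, Ermn, Bcas1, Cnp, E030003E18Rik, Hapln2, Slc1a2, Chst8, Sec14l5, Tmem125, Extl1, Kcna1, Olfr558, Ndrg2, Fmo2, Prima1, Mir7035, Acsl6, Ddo, Pla2g2d and Susd5. Mobp, Fa2h, Ermn, Bcas1, Cnp and Hapln2 are genes of myelin and oligodendrocytes. The short row Mir7035 was not absent from fetal MIA libraries, with 2.91, 28.5 and 5.24 TPM at E17, and had a mean of 12.1 TPM at P7 Saline. Mobp measured 0.14, 0 and 0.3 TPM at E17 and 77.4, 197 and 37.9 TPM at P60. In 18 of the 22 the P60 libraries were ordered as the oligodendrocyte and astrocyte sums were. Pla2g2d, a secreted phospholipase, was not. Pla2g2d was at 0, 0.19 and 0 TPM in the E17 libraries and 11, 8.14 and 6.12 TPM in the P60 libraries. Of the 22, 2 were already at 5 TPM or more in every P7 Saline library and 16 in every P20 one. Without P60 replicate 3 the rule gave 40 in place of 22. Chst8 lay just inside, with up to 0.47 TPM at E17, and Opalin and Diras2 just outside, with up to 0.5 and 0.53 TPM. No transcript of the homeostatic microglia list was adult-only, and Upk1b, with the largest rise of that list, had 0.96 to 1.65 TPM at E17.

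Most of the span was crossed between P7 and P20. Saline libraries of P7 (3 pooled brains each) and P20 (1 brain each) were placed on the span from E17 to P60 in log2(TPM + 1), as a description, since span and place share libraries. By Xist (172 to 193 TPM) and Ddx3y (0.06 to 0.14 TPM) the P20 libraries were all of females, whereas those of P60 were of both sexes. Of the 1618 transcripts called higher by at least 1, 19.8% had covered 50% of the span by P7, a further 72.2% by P20 and 7.97% later, and of the 1405 called lower these shares were 10.7%, 79.4% and 9.82%. The median transcript stood at 25.9% of its rise at P7 and 90.6% at P20, and at 10.9% and 84.0% of its fall. The mitosis list had not begun to fall at P7 (summed TPM 2383, 2426 and 2641) and was down at P20 (224, 188 and 160.5). Gpnmb was higher at P7, with a mean of 235 TPM, than at E17. For lists, the place on the span is the median over members called with a change of at least 1 in either direction. These were 9 oncofetal, 8 MHC class II, 14 immediate early, 16 homeostatic and 13 oligodendrocyte transcripts. Such oncofetal members were at 35.4% of their change by P7, and Lin28b was down from 9.67 TPM at E17 to 3.74 at P7 and 0.443 at P20. Members of MHC class II stood at 24.7% at P7 and 72.6% at P20, immediate early ones at 21.7% and 50.2%, and homeostatic ones at 8.09% and 85.3%. By mean summed TPM the homeostatic list was also short of P60 at P20 (35822 at E17, 82062 at P20, 106524 at P60). The class II sums were 793, 1347 and 1731 TPM. The oligodendrocyte members stood at 140.3% at P20, above their adult level.

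**Figure D4:**
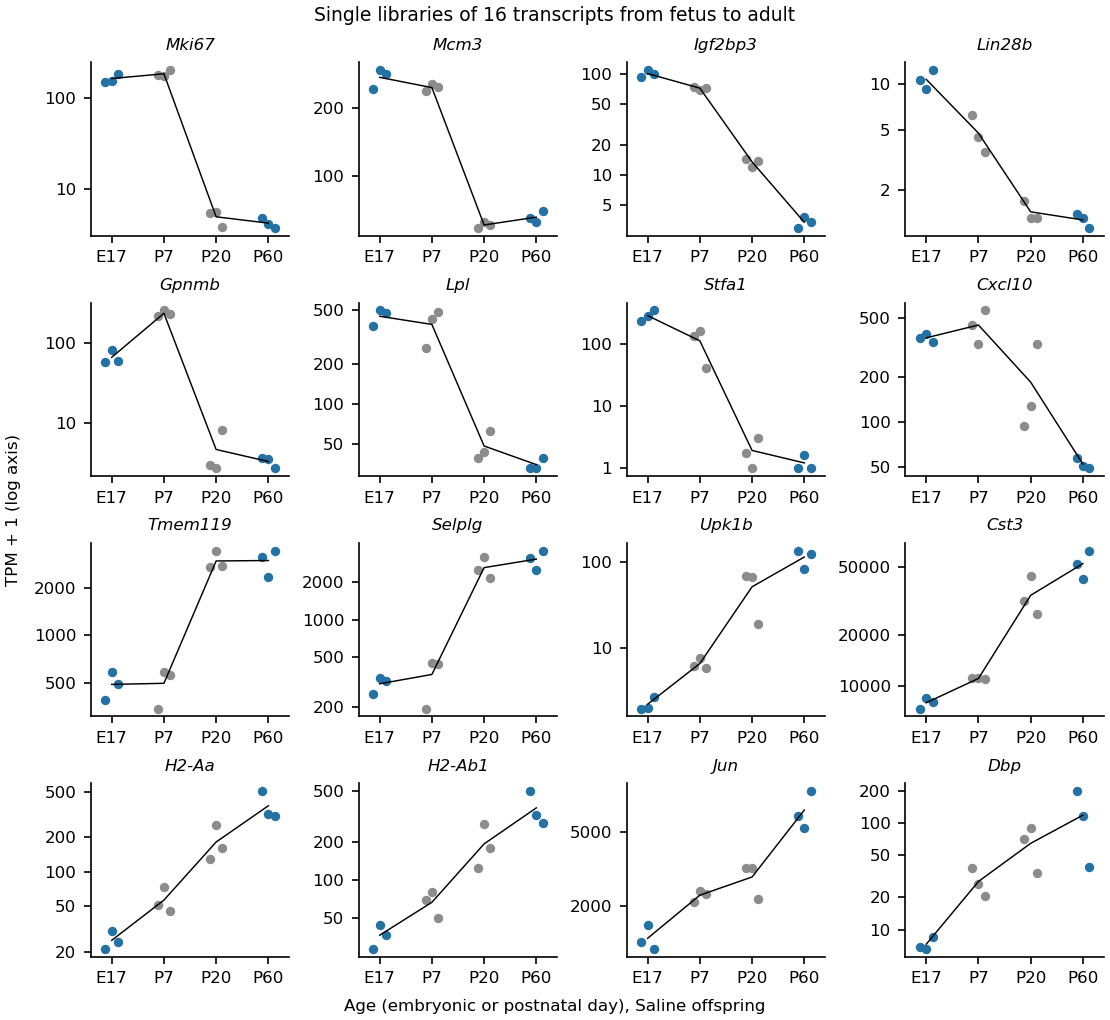
TPM + 1 (log axis) of 16 transcripts in each Saline library at E17, P7, P20 and P60 (control chow), with a line through the group means, blue for the ages compared and grey for those between. Mki67, Mcm3, Tmem119 and Selplg stay near their fetal level at P7 and are near the adult level by P20, whereas H2-Aa, H2-Ab1 and Jun climb at every step.

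The same ages in MIA offspring, measured in libraries other than those of the Saline groups compared, changed in the same direction. Of 14225 transcripts 6841 (48.1%) were called between P60 MIA + CTRL and E17 MIA, with 2742 (19.3%) higher and 4099 (28.8%) lower. Both comparisons came from 1 fit of all 30 libraries, so their tests share an estimate of spread and the calls are not independent. Fitted to its own 6 libraries alone, the MIA comparison had 4855 calls (1944 higher, 2911 lower). Of the 3148 called higher in Saline offspring 99.2% had the same sign in MIA offspring and 76.6% were called there, and of the 3614 called lower 99.5% and 90.1%. None was called in the opposite direction. The mitosis list fell in 27 of 28 (median -4.42), the homeostatic list rose in 23 of 27 (1.33) and MHC class II in 9 of 10 (2.04). No transcript differed in its change with age between MIA and Saline offspring at an adjusted p of 0.05 in limma (0.0%), and 226 (1.59%) had an unadjusted p under 0.05. In the MIA libraries all 12 fetal-only transcripts were at 5 TPM or more at E17 and 8 were also under 0.5 TPM at P60. Of the 22 adult-only transcripts 21 were at 5 TPM or more at P60 and 9 were also under 0.5 TPM at E17.

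**Figure D5:**
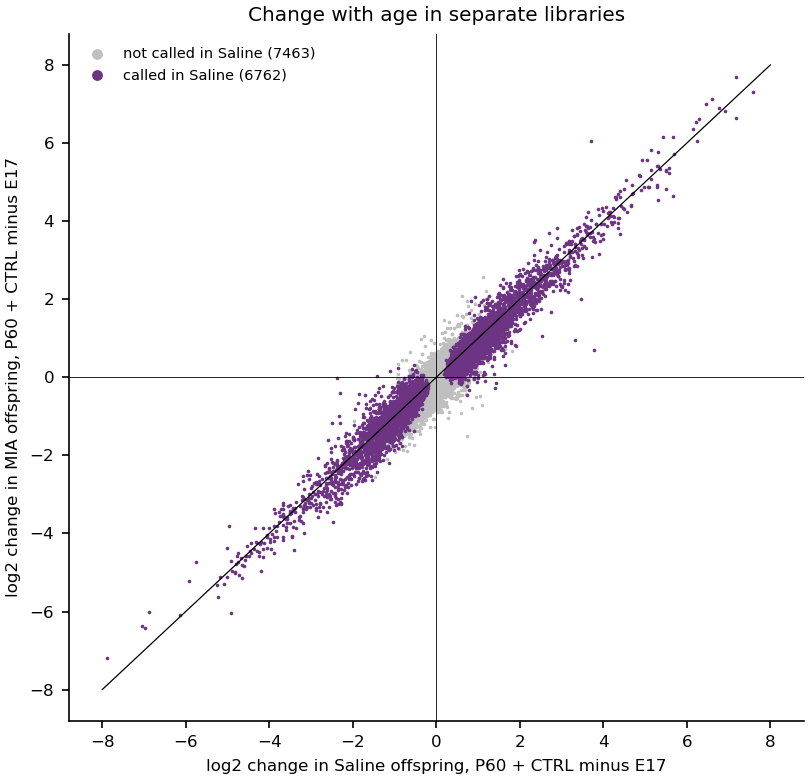
Log2 change with age (P60 + CTRL minus E17, on log2(TPM + 1)) of each transcript in MIA offspring (vertical) against Saline offspring (horizontal), with the line of equal change. The 6762 transcripts called in Saline offspring (purple) lie along the line in both directions.

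Sex differed between the libraries of the ages. The E17 pools held both Xist (111 to 127 TPM) and Y-linked transcripts such as Ddx3y (76.3 to 109 TPM), whereas P60 replicate 1 had Xist at 124 TPM and Ddx3y at 0.13 TPM and replicates 2 and 3 had Xist at 0.29 and 0.28 TPM and Ddx3y at 103 and 135 TPM. Xist was called lower at P60 (-4.32), but not without P60 replicate 2 or replicate 3, and sex-linked transcripts were left out of the ranked genes.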

How the data were processed

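RNA of CD11B bead-isolated microglia was measured as poly(A), non-stranded, single-end 40-base libraries. The authors used Rsubread for alignment to mm10 and featureCounts, with a UCSC annotation, for read counts, kept 14225 transcripts by a CPM filter over the 30 libraries and deposited TPM per transcript, with a module name beside each. The version of featureCounts and the TPM formula were not given in the sources used here. Groups and replicate numbers came from the sample titles. Without strand, a gene and an overlapping antisense partner cannot be told apart. A count model was not used because the values are TPM, and depth was estimated from the steps between low values, in which 1 read is the unit.

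In R 4.3.3, limma 3.58.1 was fitted to log2(TPM + 1), pseudocount 1, for all 30 libraries with 10 group means (20 residual degrees of freedom) and a mean-variance trend. Tests were two-sided, adjusted by Benjamini-Hochberg over 14225 transcripts and called at 0.05. They measure the spread between the 3 libraries of a group, pooled over the 10 groups. Each SE and p therefore also draws on libraries outside the groups compared. Sums over a list were compared by exact permutation over samples. The alternatives were another pseudocount, a filter on mean TPM, 2 scalings, fewer libraries, no trend, a replicate block, treat and leaving out each library; counts of list members without P60 replicate 2 and without E17 replicate 1 were added after seeing the data. Symbols matched RefSeq GRCm38.p6 for 14121 transcripts (99.27%), which also gave promoters. Figures and sums were made in Python 3.11.15 with pandas 2.3.3.

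The comparison, the 30 pathway lists and the 10 lists of other cells were chosen with earlier results of these data known. Genes named were the 15 largest rises and falls without overlap (1 transcript a gene, sex-linked left out), up to 10 fetal-only and adult-only, the 10 most abundant of each age, the 5 smallest p for the difference between MIA and Saline, and 2 to 6 members a list by size of change or role. Members beyond these, and the remaining names of the fetal-only and adult-only sets, were named after their values were seen. Some members are not reported here.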

Additional observations from a re-analysis of the deposited data

Results flagged for a closer look

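Snora41, a small nucleolar RNA, had changes of opposite sign in Saline and MIA offspring. In Saline offspring its mean level at P60 was 1.75 times that at E17 (10.9 TPM at E17, 19.1 TPM at P60), a difference that did not pass the test (log2 change 0.72, adjusted p = 0.127 in limma), whereas in MIA offspring it fell from 25.4, 20.7 and 26.6 TPM at E17 to 5.82, 9.83 and 8.27 TPM at P60. The difference of the log2 changes was -2.23 in limma (unadjusted p = 0.000422, adjusted p = 1.0), so that it did not pass the correction over all transcripts. It was the smallest p of that comparison. Poly(A) libraries capture few small nucleolar RNAs, and the levels are low. The next 4 by p were Stpg3 (-1.20), Gm16702 (-1.25), Snora23 (2.36) and Bik (-1.02), none of which passed either.

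The mitosis list, which was fetal in the comparison above, was also high in P60 Saline + MG-REP, adult Saline offspring whose microglia had repopulated after depletion and which the comparison does not use. Its summed TPM there was 3045, 1266 and 1137 (mean 1816), against 157, 165 and 125 TPM in P60 Saline + CTRL and 2262, 2431 and 2567 TPM at E17. The highest of these libraries stood apart from the other 2. By Xist and Ddx3y the P60 Saline + MG-REP libraries were all of females, whereas 1 of the P60 Saline + CTRL libraries was of a female and 2 were of males. In P60 MIA + MG-REP, whose libraries were also all of females (Xist 159 to 174 TPM, Ddx3y 0.11 to 0.16 TPM), the sum was 129.9 to 145 TPM. The female P60 Saline + CTRL library, replicate 1, had 157 TPM. The part of sex in these sums was not tested. Of the 12 fetal-only transcripts, 2 were at 5 TPM or more in every P60 Saline + MG-REP library.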

How the results depend on the processing

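The count of transcripts called between E17 Saline and P60 Saline + CTRL ranged from 5878 to 6332 when 1 library was left out and reached 6870 under quantile normalization, against 6762. Fitted to the 6 libraries compared alone, with no block, it was 6344 (2885 higher, 3459 lower), and 4855 in MIA offspring. In that fit of 6 libraries with the replicate number as a block it was 5255 (2314 higher, 2941 lower), and 5355 in MIA offspring. The deviations of same-numbered Saline libraries correlated at 0.138, -0.324 and -0.042, and those of unlike numbers at -0.4 to 0.414. Deviations from a mean of 3 libraries sum to 0, so these values cannot show whether the numbers pair the samples. Under treat, against a change of 1, 916 were called (461 higher, 3.24%, and 455 lower, 3.2%). No called transcript was called in the opposite direction under any alternative, and the difference between MIA and Saline stayed at 0 calls in each. Of 194 named transcripts called, 184 kept the call in all 13 alternatives. The other 10 lost it in at least 1: Arid3b, C1qa (7 alternatives), Csf1r, Fcrls, Gabbr2, Igf2bp2, Ndufb9, Rps24, Spi1 and Xist, with Csf1r and Gabbr2 losing it under the block alone.

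The fetal-only and adult-only counts depend on the limits. At 10 and 0.5 TPM there were 4 and 10, and at 5 and 1 TPM 43 and 52. Leaving out 1 library gave 13 to 21 fetal-only (20 without P60 replicate 1 and 21 without replicate 2, against 12) and 22 to 40 adult-only (40 without P60 replicate 3, against 22). The same limits on MIA libraries gave 12 and 18, of which 8 and 9 were shared. For lists whose sums hardly differed, the log2 ratio of the P60 to the E17 mean changed sign as libraries were left out, over -0.22 to 0.20 for cholesterol synthesis, -0.103 to 0.0699 for lipid handling, -0.166 to 0.0752 for MHC class I, -0.052 to 0.0666 for interleukins and -0.37 to 0.41 for endothelial cells. The endothelial sum turned higher at P60 without E17 replicate 1 (0.41) and without P60 replicate 3 (0.11). The cause was not tested.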

Other observations

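Of the transcripts called higher by at least 1 on the log2 scale, 208 were at more than 120% of their span at P20, above the adult level, and 62 had moved the opposite way at P7 by more than 20% of the span. Of those called lower, 70 overshot in this way at P20 and 136 were higher at P7 than at E17 by more than 20% of the span, Gpnmb among them. These places on the span share libraries with it and were not tested.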
